A study of Rattus norvegicus with 66 samples.

Results

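The genes described here are the Hnrnp and Srsf families of RNA-binding splicing factors and the gene Chtop, measured by mRNA sequencing in the dorsal hippocampus of rat pups. Members were all gene map entries whose name starts with Hnrnp or Srsf, without a hyphen, plus Chtop, with a mean of at least 1 count per 1000000 counts of the library (CPM) over the 66 libraries. This gave 30 of the 37777 entries in the map: 16 Hnrnp entries, 12 Srsf entries and 2 entries named Chtop, with 28 different symbols. Members were thus chosen by name and mean CPM, but the families themselves were selected on measured values: the log2 fold changes and p-values of Hnrnph3 and of an entry named Chtop in high-dose against control males. That contrast is therefore given as a description without a test.

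All pups were Long Evans rats at postnatal day 6, and all exposure went through the mother. Aroclor 1254, a mixture of polychlorinated biphenyls, was mixed into the chow, and the groups Aro5 and Aro0.5 received 5 and 0.5 mg/kg per day of it. The groups BPA5 and BPA0.5 received the same doses of bisphenol A, a plastics monomer, by the same route. Chlorpyrifos, an organophosphate insecticide, was injected under the skin of the dam at 3 mg/kg (CPF3) or 1 mg/kg (CPF1). Control dams received untreated chow (CONF) or injected vehicle (CONSC), which the labels call saline and the methods call dimethyl sulfoxide. The males comprised 4 CONF, 5 CONSC, 4 Aro0.5, 4 BPA0.5, 4 CPF1, 6 Aro5, 7 BPA5 and 7 CPF3 pups. The females comprised 5 CONF, 5 CONSC, 5 Aro5, 4 BPA5 and 4 CPF3 pups, with no low-dose group. Each treatment was compared with the CONF and CONSC pups of the same sex, pooled, so contrasts within 1 sex share their controls. Most groups held 1 pup per litter. The Aro5 males held 6 pups from 5 litters and the Aro5 females 5 pups from 4 litters, and males and females often came from the same litters. The dissected piece also held some laterally adjacent cortex.

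Heterogeneous nuclear ribonucleoproteins, the Hnrnp proteins, coat nascent transcripts and often block the use of nearby splice sites. Serine/arginine-rich splicing factors, the Srsf proteins, bind exonic enhancers and recruit the spliceosome, and both families set the exon choice that changes as neurons mature. Chtop, chromatin target of Prmt1, is part of the machinery that hands spliced mRNA to the nuclear export receptor, and several members of these families tune their own level through splicing of their own transcripts.

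Library totals ran from 10644138 to 86206550 counts, with a median of 20740650. The Y-linked genes Kdm5d and Eif2s3y had at least 323 and 885 counts in each male library and 0 in each female library. Neuronal markers stood high, with Tubb3 at a mean of 2085 CPM, and the highest genes of the other marker lists were Slc17a7 (212 CPM, excitatory neurons), Gad1 (156, interneurons), Aqp4 (392, astrocytes), Pdgfra (140.5, oligodendrocyte lineage), Csf1r (30.2, microglia), Cldn5 (52.3, endothelium), Ttr (2314, choroid plexus), Tcf7l2 (365, thalamus), Hbb (243, blood) and Top2a (35.2, dividing cells). Summed levels of each of the 11 marker lists overlapped between control and high-dose males. Library titles had 2 spellings, called form A and form B here: in males a capital or a small letter at the end of the pup code, and in control females a separating sign or none after the group code. The sources do not say what the spelling stands for, or that it stands for the same in both sexes, which is assumed here. Form A covered 9 of 10 control and all 12 low-dose male libraries, and form B covered all 20 high-dose male libraries, so form and high dose cannot be told apart in males except through 1 control pup code, N2-2y, which had a library of each form. Of the control female libraries 5 had form A and 6 form B, and the titles of high-dose females show no form.

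Chtop and Srsf5 each appear as a pair of entries. The Chtop entry with NCBI gene ID 361990 had a mean of 172 CPM. The other entry named Chtop carries NCBI gene ID 500378, which RefSeq now names Chtopl1, and had a mean of 2.43 CPM. It was Chtopl1, not the abundant Chtop entry, that differed in high-dose males, so the entries are kept apart below under those names. RefSeq windows of 300 bases around the annotated gene starts, 250 before and 50 after, in build GRCr8, were compared for shared sequence. How alike the transcripts of the entries are was not measured. The Chtop window lies at chr2:178290299-178290598 on the minus strand and the Chtopl1 window at chr4:164491448-164491747 on the minus strand. Capitals mark the longest run of bases found in both windows, 31 bases long, and both sequences read 5′ to 3′ in the direction of the gene.
Chtop: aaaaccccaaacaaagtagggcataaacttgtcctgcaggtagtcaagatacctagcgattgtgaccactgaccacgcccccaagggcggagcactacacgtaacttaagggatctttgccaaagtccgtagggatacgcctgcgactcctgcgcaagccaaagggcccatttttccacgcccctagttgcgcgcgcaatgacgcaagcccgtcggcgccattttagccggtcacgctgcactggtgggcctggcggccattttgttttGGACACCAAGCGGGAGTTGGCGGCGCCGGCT
Chtopl1: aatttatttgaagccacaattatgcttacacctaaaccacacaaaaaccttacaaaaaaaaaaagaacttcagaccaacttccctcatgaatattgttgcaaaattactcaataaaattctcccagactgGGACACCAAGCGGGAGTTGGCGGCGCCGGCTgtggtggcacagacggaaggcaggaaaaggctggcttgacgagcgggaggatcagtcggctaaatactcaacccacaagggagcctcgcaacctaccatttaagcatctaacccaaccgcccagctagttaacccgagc
The shared run begins at base 20 of the annotated Chtop gene and runs to the end of its window, and it begins 120 bases before the annotated start of Chtopl1. Of 33469 windows of this length, only these 2 hold it on either strand, which is 0.00598%. CG dinucleotides numbered 23 in the Chtop window and 11 in the Chtopl1 window, against a median of 28 over the 28 member genes with a window and 7 over all windows. The Hnrnph3 window held 1, the lowest of the members, a count of 1 or 0 being found in 13.6% of all windows. At least 1 CG was found in 94.5% of all windows.

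Chtopl1 spans 1128 bases, against 12295 bases for Chtop. In the same build 3 member loci lie wholly inside a coding gene, Chtopl1 in Clec12a, Hnrnph3 in Rufy2 and Hnrnpl in LOC103689966, and 9 of the 29 member gene IDs overlap some other gene. How reads over shared bases or over near-identical copies were assigned is not given in the sources used here, so the levels of these 9, and of both Srsf5 entries, are uncertain to that extent. The Srsf5 entries carry the same NCBI gene ID, 29667, and had means of 228 CPM, called the main entry, and 33.2 CPM, called the minor entry. Just inside the threshold of 1 CPM lay Chtopl1 and then Hnrnph3 (5.38 CPM), and just outside lay Hnrnpab (0.704 CPM) and Hnrnpc (0.504 CPM), both left out. Hnrnpab lies wholly inside the coding gene Phykpl, so its level carries the same uncertainty, and Hnrnpc overlaps no other gene.

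Summed levels of the families had overlapping ranges in all kinds of group. Summed over its 16 entries, Hnrnp stood at 4767 ± 242 CPM (SD, n = 9) in control males, 4544 ± 488 (n = 12) in low-dose males and 4639 ± 384 (n = 20) in high-dose males. Control females had 4302 ± 229 (n = 10) and high-dose females 4200 ± 407 CPM (n = 13). The 12 Srsf entries summed to 1841 ± 115 CPM in control males, 1859 ± 151 in high-dose males, 1642 ± 121 in control females and 1576 ± 129 in high-dose females. The most abundant member of each family by CPM, Hnrnpa1 and Srsf2, had group means that differed by 1.28-fold and 1.18-fold between the highest and the lowest of the 13 groups. The corresponding ratio was 2.64 for the minor Srsf5 entry, 2.22 for Chtopl1, 1.95 for Hnrnpr, 1.90 for Hnrnph3 and 1.66 for Srsf12, and at most 1.51 for the other 25 entries. In bulk tissue fewer cells of a type and less RNA per cell cannot be told apart.

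Hnrnph3, an RNA-binding protein of the H/F subfamily that recognises runs of G, was higher in high-dose males than in control males. The CONF males had 3.85, 4.07, 4.22 and 5.26 CPM and the CONSC males 3.27, 3.71, 4.38, 4.60 and 4.77 CPM. The Aro5 males ranged from 6.05 to 7.39 CPM with a median of 6.49, the BPA5 males from 4.81 to 7.34 with a median of 6.86, and the CPF3 males from 5.83 to 8.87 with a median of 6.20. Every Aro5 and CPF3 male lay above every control male, whereas 2 BPA5 males, at 4.81 and 4.95 CPM, lay within the control range. The upper end of that range, 5.26 CPM, is the control pup N2-2y with its libraries of both forms summed, and the next highest control male had 4.77 CPM. The edgeR log2 fold changes (± SE) of Hnrnph3 were 0.64 ± 0.11, 0.57 ± 0.11 and 0.68 ± 0.11 for Aro5, BPA5 and CPF3 males. Counts of the gene are low, at 36 to 180 reads per control male and 61 to 229 per high-dose male.

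Chtopl1 went the other way. Control males had 2.65, 2.75, 4.28 and 4.39 CPM in CONF and 2.86, 2.88, 3.10, 3.18 and 3.44 CPM in CONSC. The Aro5 males ranged from 1.81 to 2.20 CPM with a median of 2.01, the BPA5 males from 1.49 to 2.13 with a median of 1.97, and the CPF3 males from 1.61 to 2.80 with a median of 1.92. All Aro5 and BPA5 males lay below all control males, and 1 CPF3 male at 2.80 CPM lay within the control range. The log2 fold changes (± SE) for Aro5, BPA5 and CPF3 males were -0.70 ± 0.13, -0.76 ± 0.12 and -0.66 ± 0.12, on 18 to 94 reads per male in these groups. The abundant Chtop entry stood at 191 ± 7.36 CPM in control males and 177 ± 15.0 CPM in high-dose males, with overlapping ranges.

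**Figure D1:**
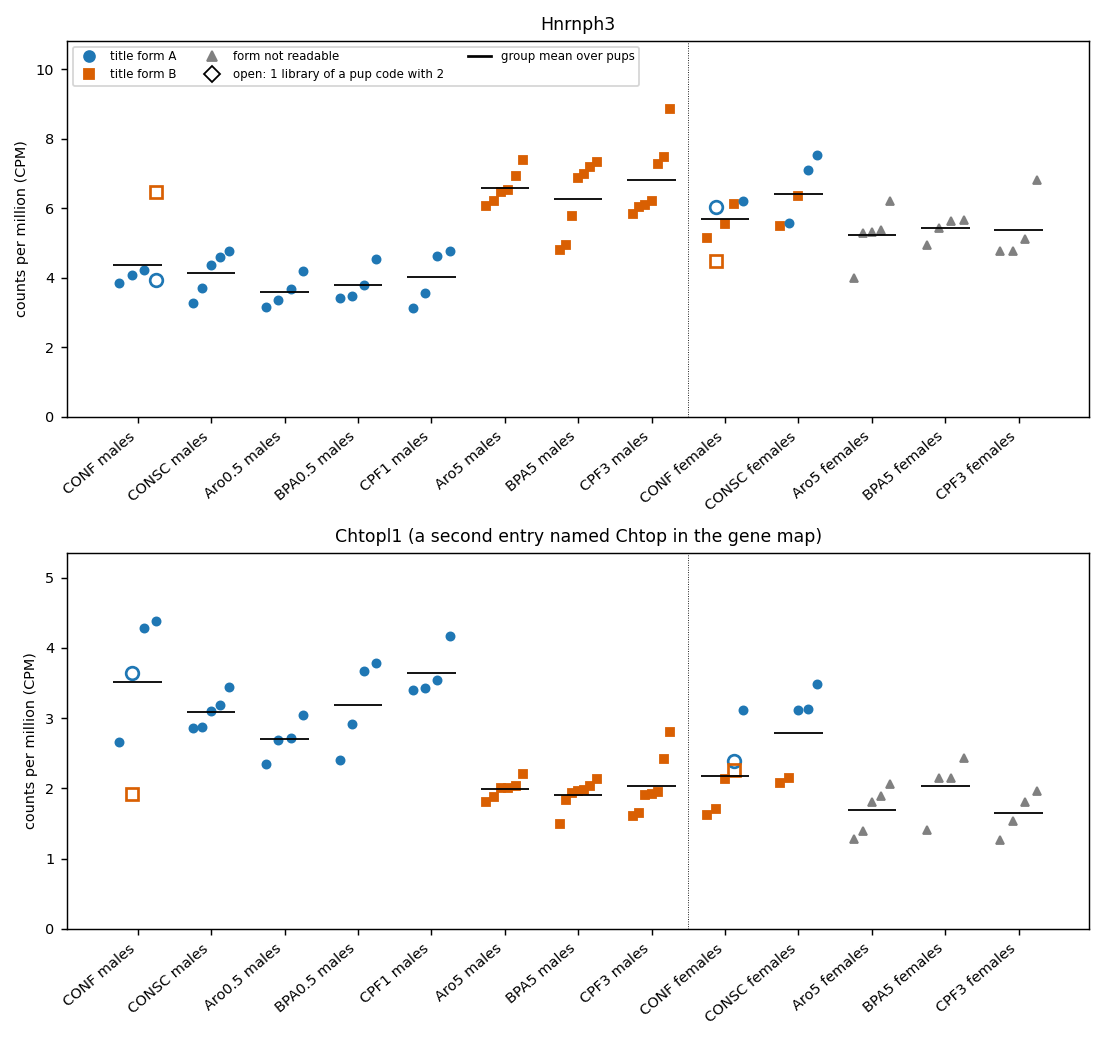
CPM (vertical axis) of Hnrnph3 and Chtopl1 in each pup of the 13 groups, with black lines for group means, colour and shape for the title form of the library, and open symbols for the separate libraries of the pup codes N2-2y and N4-3x. High-dose males of form B lie at 4.81 to 8.87 CPM for Hnrnph3 and 1.49 to 2.80 CPM for Chtopl1, and the form B library of the control male N2-2y lies among them at 6.48 and 1.92 CPM.

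Apart from Hnrnph3 and Chtopl1, no member passed the edgeR threshold in the high-dose males over all pups. The values that chose the topic are a count of 2 members, Hnrnph3 and Chtopl1, past an adjusted p of 0.05 in each of the 3 groups (edgeR quasi-likelihood test, Benjamini-Hochberg over all genes), beside 0.195%, 0.189% and 0.159% of all 16393 genes for Aro5, BPA5 and CPF3. Nothing is read from this count. The members whose CPM did not overlap the controls were Hnrnph3 and Chtopl1 in Aro5, Chtopl1 in BPA5 and Hnrnph3 in CPF3 males, against 0.305%, 0.207% and 0.244% of all genes. The median log2 fold changes over the 30 members were 0.02, -0.04 and 0.01 for Aro5, BPA5 and CPF3 males, and 0.00, 0.01 and 0.00 over all genes. The near relatives of Hnrnph3 did not follow it: Hnrnph1 stood at 393 ± 36.3 CPM in control and 392 ± 45.3 in high-dose males, Hnrnph2 at 93.4 ± 9.20 and 92.6 ± 11.7, and Hnrnpf at 99.1 ± 4.59 and 98.1 ± 5.91. Srsf12, a low-abundance SR protein, was higher by 0.44 ± 0.16 in Aro5 and 0.39 ± 0.16 in BPA5 males without passing the threshold over all pups, at 4.85 to 11.7 CPM over the high-dose males and 4.55 to 9.37 CPM over the control males. The minor Srsf5 entry differed by -0.24 ± 0.11, -0.29 ± 0.11 and -0.23 ± 0.11 for Aro5, BPA5 and CPF3 males, also short of the threshold, and the main Srsf5 entry by 0.19 ± 0.09 in Aro5 males. Of a list of 88 other splicing and export genes (27 core spliceosome, 12 SR-related proteins and kinases, 34 regulators, 15 export factors), 0 passed the threshold in Aro5, BPA5 or CPF3 males, and 12, 13 and 8 had an unadjusted p under 0.05, against 11.8%, 9.1% and 12.6% of all genes.

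**Figure D2:**
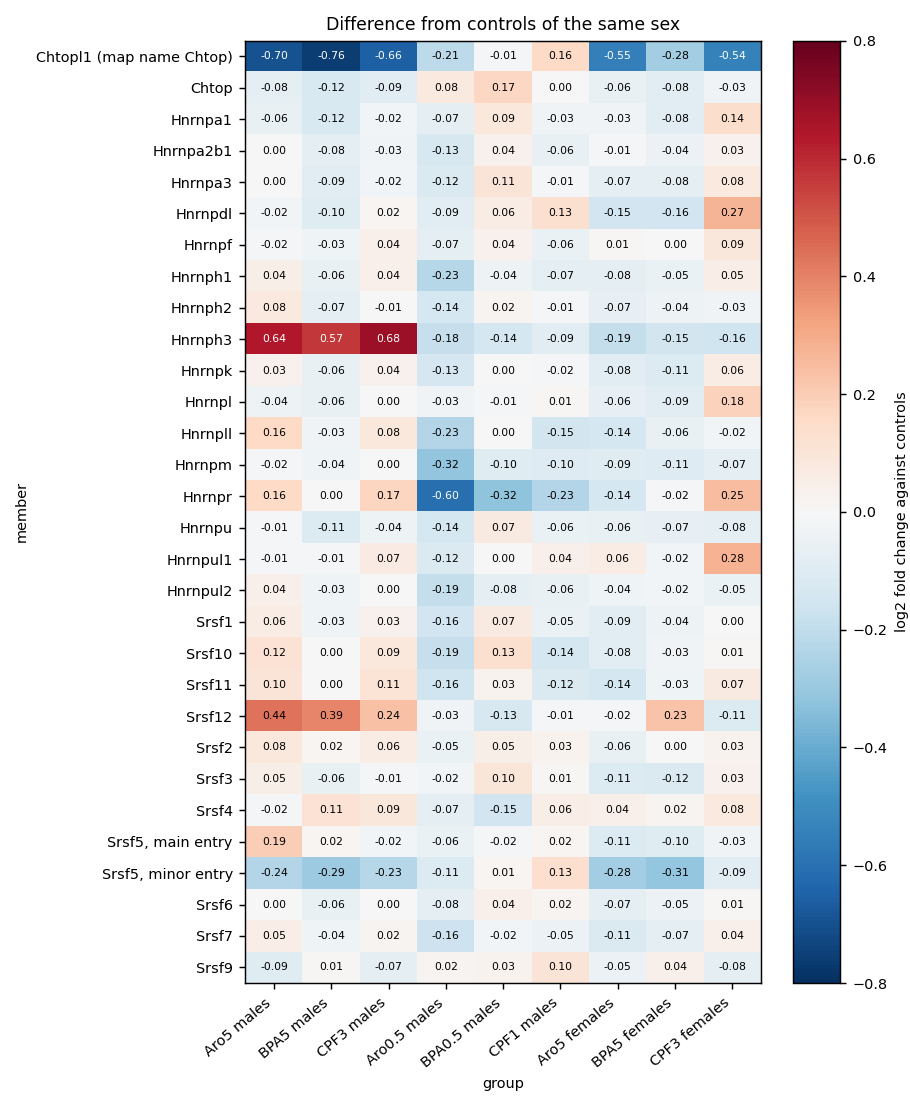
Log2 fold change of each of the 30 members (rows) against controls of the same sex, for 9 treated groups (columns), from the edgeR fits. The high-dose males, the contrast that chose the topic, have Hnrnph3 at 0.57 to 0.68 and Chtopl1 at -0.76 to -0.66, and no member passed an adjusted p of 0.05 in the low-dose male or the female groups.

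The control male code N2-2y gave a comparison of the title forms between libraries that share a pup code and a labelled time of day, 10.57 h. These libraries were less alike over all genes than other pairs of CONF males, which were of form A: the mean chi-square per gene, over genes with at least 20 counts, was 31.7 between them and 7.29 to 14.6 between the others. That they come from 1 animal rests on the shared code alone. The form A library had 3.95 CPM of Hnrnph3 (65 counts) and the form B library 6.48 CPM (115 counts), a log2 ratio of B over A of 0.72 with an exact 95% binomial interval of 0.26 to 1.18. For Chtopl1 the libraries had 3.64 CPM (60 counts) and 1.92 CPM (34 counts), a log2 ratio of -0.93 with an interval of -1.58 to -0.30. The form A library thus lay inside the range of the other control males for both genes, and the form B library lay outside it and inside the range of the high-dose males. These 2 ratios were the highest and the lowest among the 30 members. Over all 30 members the interval lay below 0 for 23 and above 0 for 4, against 26.6% and 26.5% of the 16393 genes tested in males, and the median ratio was -0.24 over the members and -0.02 over all genes. Srsf4, at 53.9 and 77.0 CPM, had the next highest ratio at 0.52. The control female code N4-3x also had a library of each form, but the labels give these different times of day, 12.09 h and 11.55 h, so whether they are 1 animal is not certain. The chi-square per gene was 4.09 between them and 7.10 to 30.5 between other CONF females, which, unlike the CONF males compared above, were of both forms. There 7 member intervals lay below 0 and 3 above, against 13.0% and 6.76% of the 16992 genes tested in females, with a median of -0.04 over the members and -0.03 over all genes. Hnrnph3 went the other way, at 6.03 CPM in form A and 4.48 CPM in form B, and Chtopl1 had 2.38 and 2.27 CPM. The intervals cover counting error only.

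**Figure D3:**
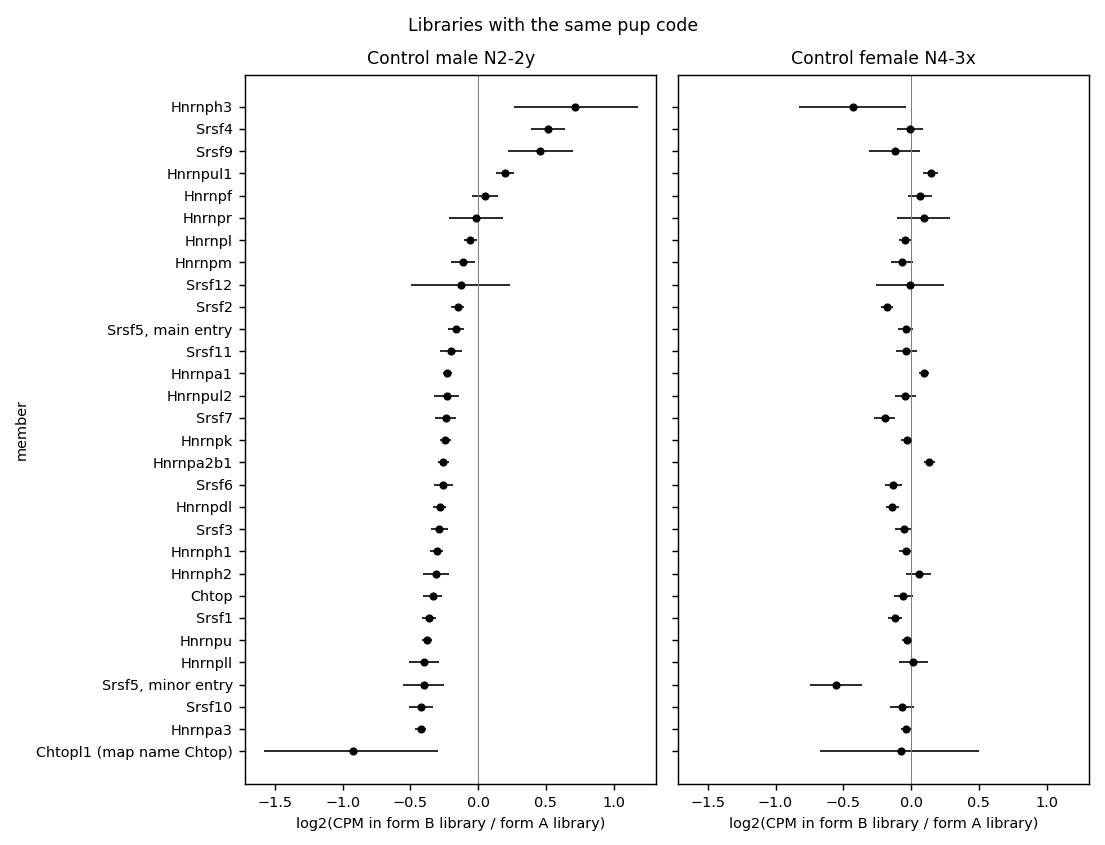
Log2 ratio of CPM in the form B over the form A library of the same pup code (horizontal axis) for each member (vertical axis), with exact 95% binomial intervals, in the control male N2-2y and the control female N4-3x. In N2-2y, Hnrnph3 at 0.72 and Chtopl1 at -0.93 are the extremes.

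Control females allowed the forms to be compared over several pups that the choice of topic had not used. Chtopl1 had 2.38, 3.11, 3.12, 3.13 and 3.49 CPM in the 5 form A libraries and 1.61, 1.70, 2.08, 2.13, 2.14 and 2.27 CPM in the 6 form B libraries. The forms did not overlap. Adjusted over all 16577 genes, the difference of -0.53 ± 0.15 did not pass the edgeR test (adjusted p = 0.127, unadjusted p = 0.00336). Hnrnph3 had 5.59 to 7.54 CPM in form A and 4.48 to 6.36 CPM in form B, with overlap, a difference of -0.16 ± 0.12 (edgeR adjusted p = 0.561), opposite in sign to that between the libraries of N2-2y. The minor Srsf5 entry was the 1 member that passed, at 26.5 ± 1.44 CPM in form A (n = 5) and 19.1 ± 1.60 CPM in form B (n = 6), a difference of -0.43 ± 0.08 (edgeR adjusted p = 0.0317), where 0.652% of all genes were called. The call was kept when N3-1x or 9-1x was left out and lost when any of the other 9 libraries was, the difference staying between -0.47 and -0.40, and it was lost without both libraries of N4-3x, at -0.42. At an unadjusted p under 0.05, 10 members were lower and 1 higher in form B, against 7.81% and 7.37% of all genes, and 9 members had ranges that did not overlap, against 4.23% of all genes. Of the lower members Hnrnpk, a binder of C-rich RNA, had the smallest difference, at -0.13 ± 0.05 (edgeR adjusted p = 0.244). The 1 higher member was Hnrnpul1, an RNA-binding protein linked to DNA repair, at 0.21 ± 0.05 (edgeR adjusted p = 0.0936).

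With title form as a covariate in males, the log2 fold changes for Aro5, BPA5 and CPF3 were 0.05, -0.03 and 0.09 for Hnrnph3, 0.08, 0.01 and 0.12 for Chtopl1, and 0.01, -0.04 and 0.02 for the minor Srsf5 entry. These values rest on the single form B control library, that of N2-2y, and so largely restate the ratios between its libraries with the precision of 1 library. With the form B library alone standing for N2-2y, Hnrnph3 was at 0.60, 0.53 and 0.64 and Chtopl1 at -0.65, -0.72 and -0.61. High dose and title form cannot be told apart for the other pups. With controls of the same route only, Hnrnph3 was at 0.62, 0.54 and 0.72 and Chtopl1 at -0.77, -0.84 and -0.57. Among pups dissected between 10.30 h and 13.20 h, Hnrnph3 was at 0.62, 0.53 and 0.71 and Chtopl1 at -0.73, -0.78 and -0.68, each in the same order. Within this window Srsf12 was also past the edgeR threshold in Aro5 males, at 0.78 ± 0.18, where 4.96% of all genes were called.

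The low-dose males, whose libraries all have form A like 9 of the 10 control male libraries, showed neither difference. Hnrnph3 had 3.16, 3.34, 3.68 and 4.18 CPM in Aro0.5, 3.42, 3.48, 3.78 and 4.53 CPM in BPA0.5, and 3.12, 3.55, 4.61 and 4.78 CPM in CPF1 males. All 3 groups overlapped the control males, with differences of -0.18 ± 0.13, -0.14 ± 0.14 and -0.09 ± 0.14. Chtopl1 had 2.34, 2.69, 2.71 and 3.04 CPM in Aro0.5, 2.40, 2.92, 3.66 and 3.78 CPM in BPA0.5, and 3.40, 3.43, 3.55 and 4.17 CPM in CPF1 males. It overlapped the controls in all 3 groups, with differences of -0.21 ± 0.15, -0.01 ± 0.15 and 0.16 ± 0.15. No member passed the edgeR threshold at a low dose, where 0.124%, 0.0434% and 0.0% of 16139 genes were called in Aro0.5, BPA0.5 and CPF1 males.

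Aro0.5 males had the lowest levels of several Hnrnp genes. Log2 fold changes lay below 0 for 28 of 30 members, against 49.5% of all genes, with a median of -0.12. An unadjusted p under 0.05 was reached by 6 members, all lower. Of all genes 18.5% reached it in either direction and 8.97% were lower. Hnrnpr, which binds neuronal mRNAs including those carried into axons, had 8.94, 10.3, 10.8 and 13.4 CPM in Aro0.5 males. Control males ranged from 14.5 to 24.3 CPM with a median of 15.6, so the groups did not overlap, and the difference of -0.60 ± 0.15 did not pass (edgeR adjusted p = 0.115). Hnrnpm, a splicing repressor and activator, was lower by 0.32, at 87.5 ± 9.08 CPM (n = 4) against 114 ± 10.7 (n = 9), with overlapping ranges (log2 fold change -0.32 ± 0.07, edgeR adjusted p = 0.0937). Hnrnpul2 also did not overlap the controls (-0.19 ± 0.06, edgeR adjusted p = 0.138), a pattern shown by 1.53% of all genes. Hnrnph1 and Hnrnpll, known for exon choice in lymphocytes, were at -0.23 ± 0.09 each, and Hnrnpul1 at -0.12 ± 0.05. DESeq2 called Hnrnpr and Hnrnpm (adjusted p = 0.0223 and 0.0133) and 0.964% of all genes, and both were called by edgeR without the CONSC male 8-4y, at -0.62 and -0.34 for Hnrnpr and Hnrnpm. The share of mitochondrial counts was 8.34% to 9.68% in Aro0.5 males, 8.23% to 10.3% in BPA0.5 males and 6.31% to 8.08% in control males. Its part in these values was not tested. In BPA0.5 males Hnrnpr stood at 8.64, 14.0, 14.9 and 16.8 CPM (-0.32 ± 0.15, edgeR adjusted p = 0.566; -0.17 without the pup 73-4y) and Chtop at 0.17 ± 0.06 (edgeR adjusted p = 0.491; 0.10 without the pup 72-4y), and in CPF1 males 0 members reached an unadjusted p under 0.05. Among the 88 other splicing genes, 16 of the Aro0.5 values (14 lower), 6 of the BPA0.5 values and 3 of the CPF1 values had an unadjusted p under 0.05, against 18.5%, 8.58% and 2.0% of all genes, and 0 passed the adjusted threshold.

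Hnrnph3 was not higher in high-dose than in control females. Control females had 5.13, 5.45, 5.53, 6.11 and 6.20 CPM in CONF and 5.48, 5.59, 6.36, 7.09 and 7.54 CPM in CONSC. The Aro5 females had 3.99, 5.29, 5.33, 5.38 and 6.21 CPM, the BPA5 females 4.94, 5.44, 5.64 and 5.67, and the CPF3 females 4.77, 4.78, 5.13 and 6.81. All treated groups overlapped the control females. The differences were -0.19 ± 0.11, -0.15 ± 0.12 and -0.16 ± 0.12 (edgeR adjusted p = 0.999, 0.925 and 0.717), and the 95% interval of each had an upper bound of at most 0.09.

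Chtopl1 in females had 1.28, 1.40, 1.81, 1.90 and 2.07 CPM in Aro5, 1.41, 2.15, 2.15 and 2.43 CPM in BPA5, and 1.26, 1.54, 1.81 and 1.96 CPM in CPF3. Control females had 1.61, 1.70, 2.13, 2.34 and 3.12 CPM in CONF and 2.08, 2.14, 3.11, 3.13 and 3.49 CPM in CONSC, so all groups overlapped. The differences of -0.55 ± 0.19 in Aro5 and -0.54 ± 0.20 in CPF3 had an unadjusted p of 0.00692 and 0.0132 but failed the adjustment (edgeR adjusted p = 0.999 and 0.471). Against controls of the same route these differences were -0.36 and -0.72, and with 1 pup per litter the Aro5 difference was -0.64. The BPA5 difference was -0.28 ± 0.20 (edgeR adjusted p = 0.925). The control females at the low end of Chtopl1 are those with form B libraries, and the form of the high-dose females is not known, so the part of the form was not tested there.

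No member passed in any female group, and edgeR called 0 of 16992 genes (0.0%) in each, while DESeq2 called 0, 1 and 3. Without adjustment 548, 694 and 1493 genes had a p under 0.05 for Aro5, BPA5 and CPF3 females, which is 3.23%, 4.08% and 8.79% of them, and 2, 1 and 4 members did. Besides Chtopl1 these were the minor Srsf5 entry in Aro5 (-0.28 ± 0.11) and BPA5 females (-0.31 ± 0.12), and in CPF3 females Hnrnpul1 (0.28 ± 0.09), Hnrnpdl (0.27 ± 0.11) and Hnrnpl, a binder of CA-rich RNA (0.18 ± 0.08), with edgeR adjusted p of 0.450 or more for each of them. Without the CPF3 female 43-3x the last 3 values were 0.16, 0.06 and 0.05. The 88 other splicing genes gave 0 calls, and 3, 3 and 12 of them had a p under 0.05 before adjustment, the 12 for CPF3 females all higher.

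The responses of the sexes were also compared in 1 fit with a sex by treatment term. Because this term contains the high-dose males, Hnrnph3 and Chtopl1 are given without a test. For Hnrnph3 the male difference from controls exceeded the female one by 0.84 ± 0.16 for Aro5, 0.72 ± 0.16 for BPA5 and 0.85 ± 0.16 for CPF3 (log2 ± SE). For Chtopl1 the male minus female difference was -0.14 ± 0.22, -0.49 ± 0.22 and -0.10 ± 0.22. Leaving out single pups moved the Hnrnph3 values over 0.75 to 0.90, 0.66 to 0.77 and 0.78 to 0.96. Of the members apart from Hnrnph3 and Chtopl1, 0 passed the threshold in any of the 3 terms over all pups, where edgeR called 0.0984% (Aro5), 0.0405% (BPA5) and 0.0463% (CPF3) of all 17282 genes. Of these members, those at an unadjusted p under 0.05 were led for Aro5 by the main Srsf5 entry and Hnrnpll, both at 0.31 ± 0.12, followed by Srsf11 (0.26 ± 0.11) and Srsf2 (0.15 ± 0.07), and Hnrnpul1 (-0.20 ± 0.10) and Hnrnpl (-0.17 ± 0.08) were the 2 lowest such members for CPF3, all with an edgeR adjusted p of 0.406 or more. Without the CPF3 female 43-3x the last 2 values were -0.07 and -0.03, and Hnrnpdl, at -0.25 ± 0.14 (-0.03 without 43-3x), lay lower than both over all pups without reaching an unadjusted p under 0.05. Within the dissection window 3 members apart from Hnrnph3 and Chtopl1 passed for Aro5, where 3.49% of all genes were called: the main Srsf5 entry at 0.48 (edgeR adjusted p = 0.044), Hnrnpll at 0.46 (0.0406) and Srsf11 at 0.43 (0.0394).

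The minor Srsf5 entry showed the clearest difference between males and females. Control males had 39.7, 42.4, 42.9 and 47.4 CPM in CONF and 36.7, 38.3, 45.5, 47.8 and 54.6 CPM in CONSC. Control females had 17.9, 19.2, 22.1, 22.9 and 24.6 CPM in CONF and 18.5, 18.9, 26.4, 27.4 and 28.4 CPM in CONSC. The sexes did not overlap, a pattern shown by 5.42% of all genes and by no other member. The difference was 0.93 ± 0.10 (edgeR adjusted p = 5.24e-10), and it was 0.73 ± 0.09 within control libraries of form A (edgeR adjusted p = 5.04e-05). High-dose males, at 26.2 to 45.1 CPM, and high-dose females, at 15.5 to 23.6 CPM, did not overlap either. The main Srsf5 entry stood at 232 ± 19.9 CPM in control males and 224 ± 19.0 CPM in control females, so that the minor entry made up 16.0% ± 2.02 of the Srsf5 counts in males and 9.14% ± 1.12 in females (SD, n = 9 and 10).

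**Figure D4:**
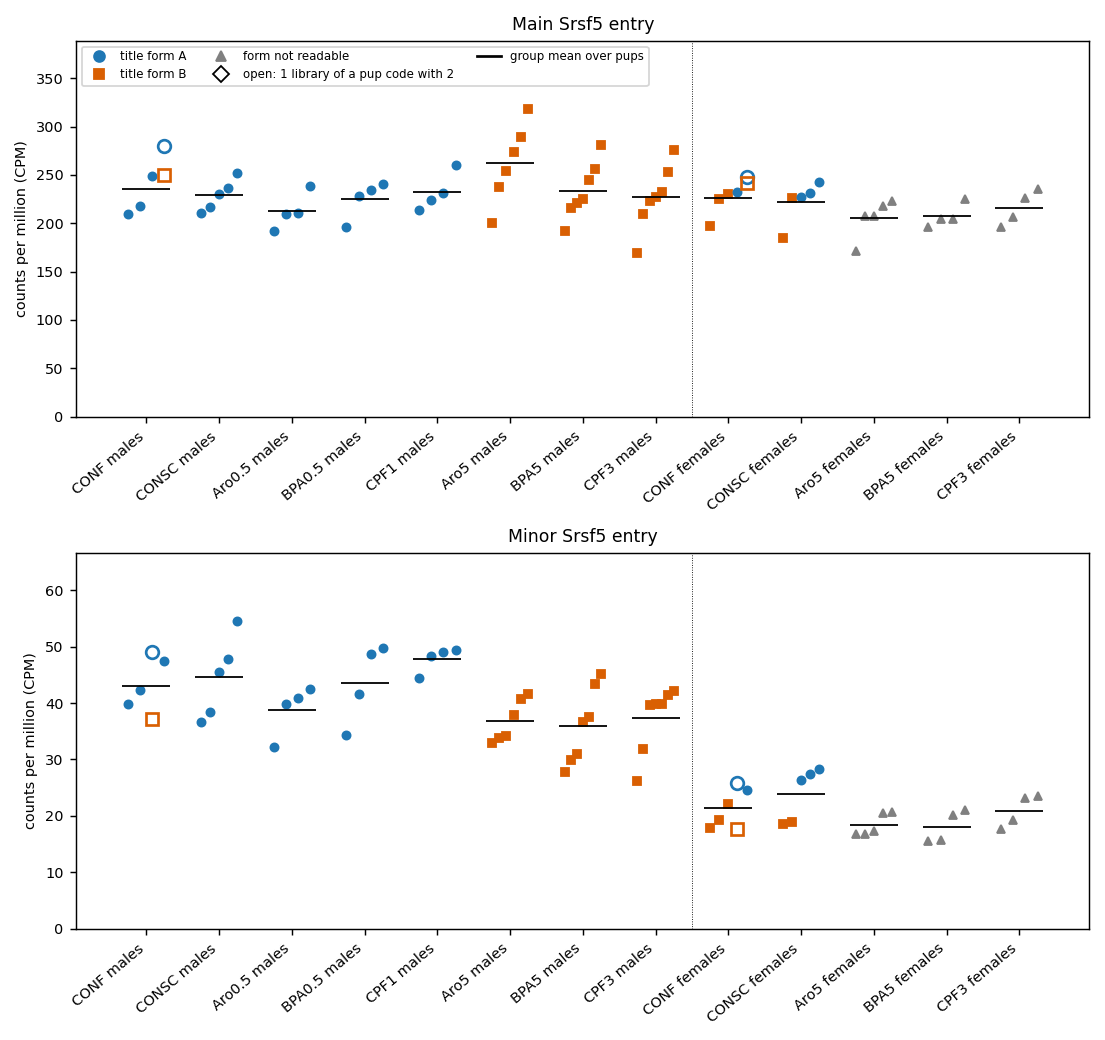
CPM (vertical axis) of both entries named Srsf5 in each pup of the 13 groups, with black lines for group means and colour and shape for the title form. Males lie at 26.2 to 54.6 CPM and females at 15.5 to 28.4 CPM for the minor entry, while the main entry overlaps between the sexes.

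Hnrnph3 and Chtopl1 are left out of the counts between the sexes, because the control males entered the choice of topic. Of the other 28 members, 15 differed between control males and control females in the same fit, 12 higher and 3 lower in males, where 27.1% of all genes were called, 12.4% higher and 14.6% lower. Control males belong almost all to form A, whereas 6 of the 11 control female libraries belong to form B, so the comparison was repeated within form A control libraries, 9 male and 5 female. There 2 of the 28 passed, where 11.7% of all genes did: the minor Srsf5 entry and Srsf4, an SR protein, lower in males by 0.28 (log2 fold change -0.28 ± 0.09, edgeR adjusted p = 0.0468). Hnrnph3 was lower in control males by 0.53 over all controls and by 0.68 within form A (log2 fold changes -0.53 ± 0.10 and -0.68 ± 0.11), and Chtopl1 was at 0.36 ± 0.13 over all controls and 0.13 ± 0.14 within form A, all given without a test. Chtop, at 191 ± 7.36 CPM in control males and 153 ± 20.6 CPM in control females, was at 0.29 ± 0.06 over all controls (edgeR adjusted p = 7.76e-05) and 0.19 ± 0.07 within form A (edgeR adjusted p = 0.106). Also called over all controls, and short of the threshold in the fewer form A libraries, were Srsf3, Srsf7, Srsf10, Hnrnph1, Hnrnph2, Hnrnpa1, Hnrnpa3, Hnrnpk, Hnrnpll and Hnrnpu, higher in males by 0.16 to 0.26, and Hnrnpm and Hnrnpul1, lower by 0.15 and 0.18 (log2). Their differences within form A were 0.12 to 0.22 for the 10 higher members, -0.19 for Hnrnpm and -0.08 for Hnrnpul1. The call of Hnrnpa1 over all controls was lost in most of the 52 omissions of a single pup, and the calls of Hnrnpu and Hnrnpm in fewer of them. Treated pups belong to the same fit, so leaving them out also moved these values. For example, without the BPA5 female 79-4x Hnrnpa1 was at 0.13 and Hnrnpu at 0.11 (edgeR adjusted p = 0.134 and 0.112). Among pups dissected in the window, 8 of the 28 passed, 3 higher (the minor Srsf5 entry, Srsf3 and Chtop) and 5 lower in males, where 20.5% of all genes were called, 6.08% higher and 14.4% lower. Of the 11 marker lists, the summed level of endothelium (Cldn5, Flt1 and Pecam1, all above 0 in every pup) did not overlap between the sexes, at 58.7 to 79.0 CPM in control males and 83.9 to 107 CPM in control females, and its part in these differences was not tested. Of the 88 other splicing genes 33 differed over all controls, 17 higher and 16 lower in males, the 5 with the smallest p being Pcbp1 (-0.44 ± 0.06), Nova2, a neuronal splicing regulator (-0.89 ± 0.13), Snrpc (-0.53 ± 0.08), Sf3b4 (-0.57 ± 0.09) and Sf3a2 (-0.95 ± 0.15), with edgeR adjusted p of at most 6.52e-06. No form A values are given for these genes, so the part of title form was not tested there.

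**Figure D5:**
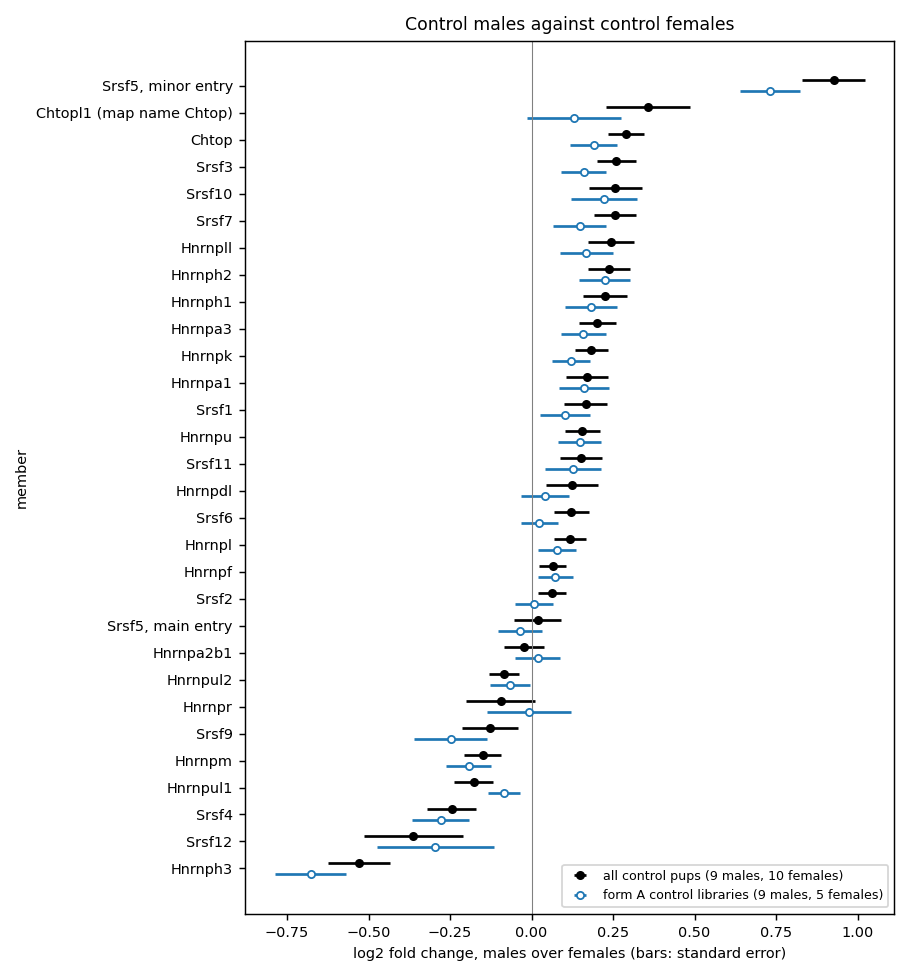
Log2 fold change of males over females in controls (horizontal axis, bars are standard errors) for each member (vertical axis), over all control pups (filled) and within form A control libraries (open). The minor Srsf5 entry is at 0.93 and 0.73 and Hnrnph3 at -0.53 and -0.68, the latter given as a description.

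The routes of the controls did not separate the members. Between CONSC and CONF males 0 members passed the edgeR threshold, where 0.013% of 15387 genes did, and 0 reached an unadjusted p under 0.05, against 0.988% of all genes. Between CONSC and CONF females 0 members passed, where 0.0% of 16618 genes did, DESeq2 also calling 0 of all genes and edgeR giving 713 genes (4.29%) at an unadjusted p under 0.05. Srsf12 was the 1 member at an unadjusted p under 0.05, at -0.40 ± 0.16 in CONSC females (edgeR adjusted p = 0.850). Its CONF females had 8.06 to 12.0 CPM and its CONSC females 5.98 to 10.1 CPM, with overlap.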

How the data were processed

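Stranded mRNA libraries of the dorsal hippocampus (Illumina TruSeq) were sequenced single-end, on a NovaSeq per the labels and on another instrument per the study's methods. The deposited files hold raw counts per gene, which the authors made on the rat build Rnor_6.0, with STAR, featureCounts and kallisto named in the submitters' processing notes. How multi-mapped or overlapping reads and the strand were handled is not given in the sources used here. Gene names came from the deposited gene map, and sequences, loci and current symbols from RefSeq build GRCr8, a different build, so no Rnor_6.0 position is given.

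Counts of the 2 libraries with the pup code N2-2y, and of the 2 with N4-3x, were summed as 1 pup each, except in comparisons of title form. CPM is counts per 1000000 counts of the library. The test was the edgeR 4.0.16 quasi-likelihood F test (R 4.3.3, TMM scaling, filterByExpr) with Benjamini-Hochberg adjustment over all genes tested and a threshold of 0.05. Males at high dose, males at low dose and females were fitted separately, and sexes in 1 fit with an interaction. Standard errors come from the F statistic. Where a group is given as mean ± SD, n is its number of pups. Fits were tested on simulated data. Alternatives were DESeq2 1.42.0, its size factors in edgeR, no filter on low counts, leaving out each pup, the dissection window from 10.30 h to 13.20 h (11 libraries lie outside), controls of the same route, title form as a covariate, 1 pup per litter and, for the interaction, the litter as a replicate block (limma 3.58.1 voom). Only the form A or only the form B library of N2-2y, and the comparison of control males with control females, were chosen after seeing the data. The pups pair by litter, and the consensus correlation within litters was -0.006099. Totals and depth are in the report, and precision is lowest for Chtopl1, with 16 to 156 counts per pup.

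Members and lists were chosen with earlier results of these data known. All members were described by counts and ranges. Values were given for Hnrnph3 and the Chtop entries in every group, the relatives Hnrnph1, Hnrnph2 and Hnrnpf, members past the threshold, the 2 highest and 2 lowest members at an unadjusted p under 0.05 in each contrast, the most abundant member of each family, the entries next to the CPM minimum, other splicing genes past the threshold (up to 5 per contrast) and the highest gene of each marker list.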

Additional observations from a re-analysis of the deposited data

Results flagged for a closer look

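Single pups stood far from the rest of their group, by Dixon's criterion at the 95% level, in 14 of 247 combinations of a named member and a group. Chance flags about 1 in 20 such groups. Hnrnpr was highest in the CONF male N2-2y (24.3 CPM, others 15.0 to 16.4), the CONSC male 10-2y (21.6, others 14.5 to 16.5) and the BPA5 male 88-3y (22.5, others 14.0 to 17.4). Hnrnpul2 was also highest in 10-2y (116 CPM, others 105 to 107). Hnrnph2 was highest in the CONF female N4-3x (81.9 CPM, others 75.1 to 77.0) and lowest in the CPF3 male 36-3y (68.6, others 92.1 to 108). Srsf12 was highest in N4-3x as well (12.0 CPM, others 8.06 to 9.16) and in the CONSC female 8-2x (10.1, others 5.98 to 6.82). The BPA0.5 male 75-1y was lowest in Hnrnpl (332 CPM, others 383 to 392) and Hnrnpul1 (178, others 189 to 191), and the BPA5 female 91-9x was highest in Hnrnpul1 (233, others 194 to 199.6). Hnrnpf was lowest in the CONF male N3-4y (91.9 CPM, others 99.0 to 99.8), Srsf2 highest in the CPF3 male 38-1y (434, others 344 to 373) and the main Srsf5 entry lowest in the CONSC female 6-7x (184, others 227 to 242).

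In the sex by treatment term the male minus female value of Hnrnph3 was 0.84 for Aro5 and 0.85 for CPF3 (log2). The term contains the males that led to the choice of topic, so the values are a description. High dose and title form cannot be told apart in those males.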

How the results depend on the processing

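Counts of members called are given first. Those for Aro5, BPA5 and CPF3 males, against 2, 2 and 2 as reported, include Hnrnph3 and Chtopl1 and are a description. They were 0, 0 and 0 with title form as a covariate, 0, 1 and 0 with controls of the same route, 1, 1 and 1 with only the form B library of N2-2y, and 3, 0 and 1 within the dissection window. Leaving out single pups gave 2 to 2 in each. For Aro0.5 males DESeq2 called 2 members and leaving out pups 0 to 2. For the sex by treatment terms, the counts include Hnrnph3 and Chtopl1 among the members tested and are a description. The window gave 4 members for Aro5 and 0 for CPF3, and DESeq2 gave 1 for BPA5. Leaving out pups gave 1 to 1, 0 to 1 and 0 to 1 for Aro5, BPA5 and CPF3. With the litter as a replicate block the counts were 1, 0 and 1, as without it, and are likewise a description. Between control males and control females, where 17 of 30 were called with Hnrnph3 and Chtopl1 included, 9 members were called within the window (3 higher and 6 lower in males, beside 20.5% of all genes), 3 within form A libraries (11.7%) and 14 to 20 when pups were left out. Between title forms DESeq2 called 2 members, leaving out N4-3x 0, and leaving out single libraries 0 to 1. In BPA0.5, CPF1, all female groups and both route comparisons 0 members were called under every alternative run. With title form as a covariate the direction turned for Chtopl1 (0.0784, 0.01285 and 0.119 in Aro5, BPA5 and CPF3 males), for Hnrnph3 in BPA5 (-0.02554) and for the minor Srsf5 entry in Aro5 (0.01222) and CPF3 (0.02065) males, and the cause was not tested. Chtopl1 in BPA0.5 males, near 0 as reported, was at 0.01934 with only the form B library of N2-2y, at 0.0002219 in the window and at -0.105 to 0.08619 without single pups, and Hnrnph3 in CPF1 males at -0.1811 to 0.02483 without single pups. Of 74 named log2 fold changes recomputed, the other 66 kept their direction under every alternative run. Low counts limit Hnrnph3 and Chtopl1, and n of 4 to 10 pups limits all groups.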
